A study of Mus musculus with 20 samples.

Results

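The genes described here move newly made proteins into the endoplasmic reticulum and on towards the Golgi apparatus. They were picked by a rule on gene symbols that uses no measured values, though it was set with earlier results of these data known. The rule takes the Sec, Srp, Ssr, Spcs, Tmed, Kdelr and Lman families of this route and the subunits of the COPI and COPII vesicle coats. It also takes the small GTPases of the Arf family, Rab1 and Rab2, the oligosaccharyltransferase subunits Rpn1, Rpn2, Ddost and Dad1, and Tram1 and Surf4. The rule found 89 of the 12422 probe sets on a mouse Affymetrix MG-U74A array that are not controls, and they stand for 58 genes. A probe set is the group of short oligonucleotides that reads 1 transcript. 71 of the 89 passed the filter on low signals and were tested, standing for 54 genes. The other 18 exceeded 190.8, the median signal, on fewer than 5 of the 20 arrays, and Tmed8, Sec24b, Arf2 and Ssr4 had no probe set that passed. 5 further probe sets carry several gene symbols each and were left out.

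The tissue was whole prostate from C57/B6 mice aged 10 to 12 weeks, in 4 groups of 5 arrays. 1 group had sham surgery, with the time since surgery not given. The other 3 groups were castrated. 1 was examined 3 days later and 1 after 14 days. The last received a 15 mg testosterone pellet at 14 days and was killed 3 days after that. No group had the same time since castration without testosterone. Against the 14-day group, the 3 further days and the placing of a pellet cannot be told apart from testosterone. The labels do not tie every array to an animal of its own, so the p-values measure the spread between these arrays. Running numbers in the sample titles follow the groups, and so order of handling and treatment cannot be told apart.

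The prostate epithelium secretes large amounts of protein into seminal fluid, and androgens maintain that activity. A secreted protein is recognised by the signal recognition particle, threaded through the Sec61 channel into the endoplasmic reticulum, trimmed by signal peptidase and glycosylated by oligosaccharyltransferase. COPII-coated vesicles then carry it out, COPI-coated vesicles bring escaped resident proteins and cargo receptors back, and Rab, Arf and SNARE proteins control vesicle formation and fusion.

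When the endoplasmic reticulum is overloaded, the transcription factors Xbp1 and Atf6 raise many of these genes through short promoter elements, and so promoters from RefSeq (GRCm38.p6) were searched, from 250 bases before to 50 bases after the start of transcription. A promoter was found for 46 of the 58 genes. The unfolded protein response element TGACGTGG, read on either strand, was present in 5 of these 46 genes (10.9%), namely Arf1, Copb1, Copb2, Kdelr3 and Sec23a. It was present in 0.714% of all 27025 genes with a promoter in the table and in 1.14% of the 6577 such genes on the array. The windows below show the element in capitals, in the 3 genes where it lies wholly before the start, 5′ to 3′ on the strand of the gene.
Copb1: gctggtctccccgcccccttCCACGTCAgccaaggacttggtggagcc
Arf1: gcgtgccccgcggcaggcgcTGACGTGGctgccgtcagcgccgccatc
Kdelr3: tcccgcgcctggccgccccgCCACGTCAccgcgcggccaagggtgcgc
The Copb1 window is chr7:114254681-114254728 on the minus strand, with the element 28 to 21 bases before the start. The Arf1 window is chr11:59228219-59228266 on the minus strand, with the element 84 to 77 bases before the start. The Kdelr3 window is chr15:79516358-79516405 on the plus strand, with the element 30 to 23 bases before the start. In Copb1 and Kdelr3 the capitals hold the reverse complement of the element. The 5-base core CCACG, which is part of that reverse complement, was found in 69.6% of the 46 genes against 48.7% of genes on the array, CCAAT in 39.1% against 42.5%, and AGAACA, 1 side of the androgen receptor's paired motif, in 10.9% against 16.1%. The longer elements ERSE and ERSE-II were found in 0 of the 46 genes, in 0.182% and 0.106% of genes on the array and in 0.137% and 0.0444% of all genes. At rates this low, 0 of 46 does not set the members apart. A match is a description of letters in a window and no evidence of binding.

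Array medians ran from 154.25 to 224.35 and single signals from 0 to 28575.8, in the deposited linear units, which were scaled so that each array has nearly the same trimmed mean. 4 arrays stood apart in the ratio of the 3′ to the 5′ control probe sets of Gapdh, a measure of how evenly the ends of a transcript were read. It does not tell the state of the RNA from the copying of it. On the log2 scale, 14-day replicates 4 (2.05) and 5 (1.82) and testosterone replicates 2 (4.54) and 5 (3.93) lay outside the -0.53 to -0.08 of the other arrays. Luminal epithelial markers were present in all groups. Fold changes below are on the scale of log2(signal + 12.7), which understates changes of dim probe sets, and a probe set is called when limma gives a Benjamini-Hochberg adjusted p under 0.05 over all 6913 probe sets tested.

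Most genes of this route, 41 of 54, were lower than sham 14 days after castration, and 33 of 54 were higher after 3 days of testosterone than at 14 days. At 3 days after castration 12 of the 71 probe sets were called lower and 0 higher by limma, where 4.46% of all probe sets tested were called lower and 9.84% higher. At an unadjusted p under 0.05 the counts were 24 and 0, but no share of all probe sets at that threshold is given here to set them against. The 12 became 5 when each array was centred on its median, 6 without sham replicate 1 or without 3-day replicate 5, and 7 without 3-day replicate 1 or 3. Of the 10 genes called lower at 3 days, 3 (Lman1, Sec13 and Ssr3) were called under all 29 alternative settings. At 14 days 51 were called lower and 1 higher against sham, where 24.3% and 28.6% of all were. The median change of the 71 was -0.55, and 0.01 over all probe sets tested. In 39 of the 71 every 14-day array lay below every sham array, which 15.7% of all probe sets showed, and 12 of the 71 were called lower by at least 2-fold, against 5.32% of all. Between 3 and 14 days 35 were called lower and 1 higher, where 20.4% and 20.2% of all were, with a median of -0.29. After testosterone 40 were called higher and 2 lower than at 14 days, where 18.2% and 26.6% of all were. The median of the 71 was 0.47 there, and -0.10 over all. In 32 of the 71 every testosterone array lay above every 14-day array, which 12.5% of all showed.

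By gene, taking the brightest probe set of each, 41 of 54 were called lower and 1 higher at 14 days against sham, beside 23.8% and 30.4% of the 5371 genes tested on the array. After testosterone 33 of 54 were called higher and 1 lower than at 14 days, beside 18.7% and 27.8% of genes. Of the 41 genes called lower at 14 days, 35 were called under all 29 alternative settings, and Sec63 under the 28 in which it passed the filter on low signals. The other 5 were Copb1, Copb2, Sec24c, Spcs2 and Tmed7. Of the 33 genes called higher after testosterone against 14 days, 24 were called under all 29.

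**Figure D1:**
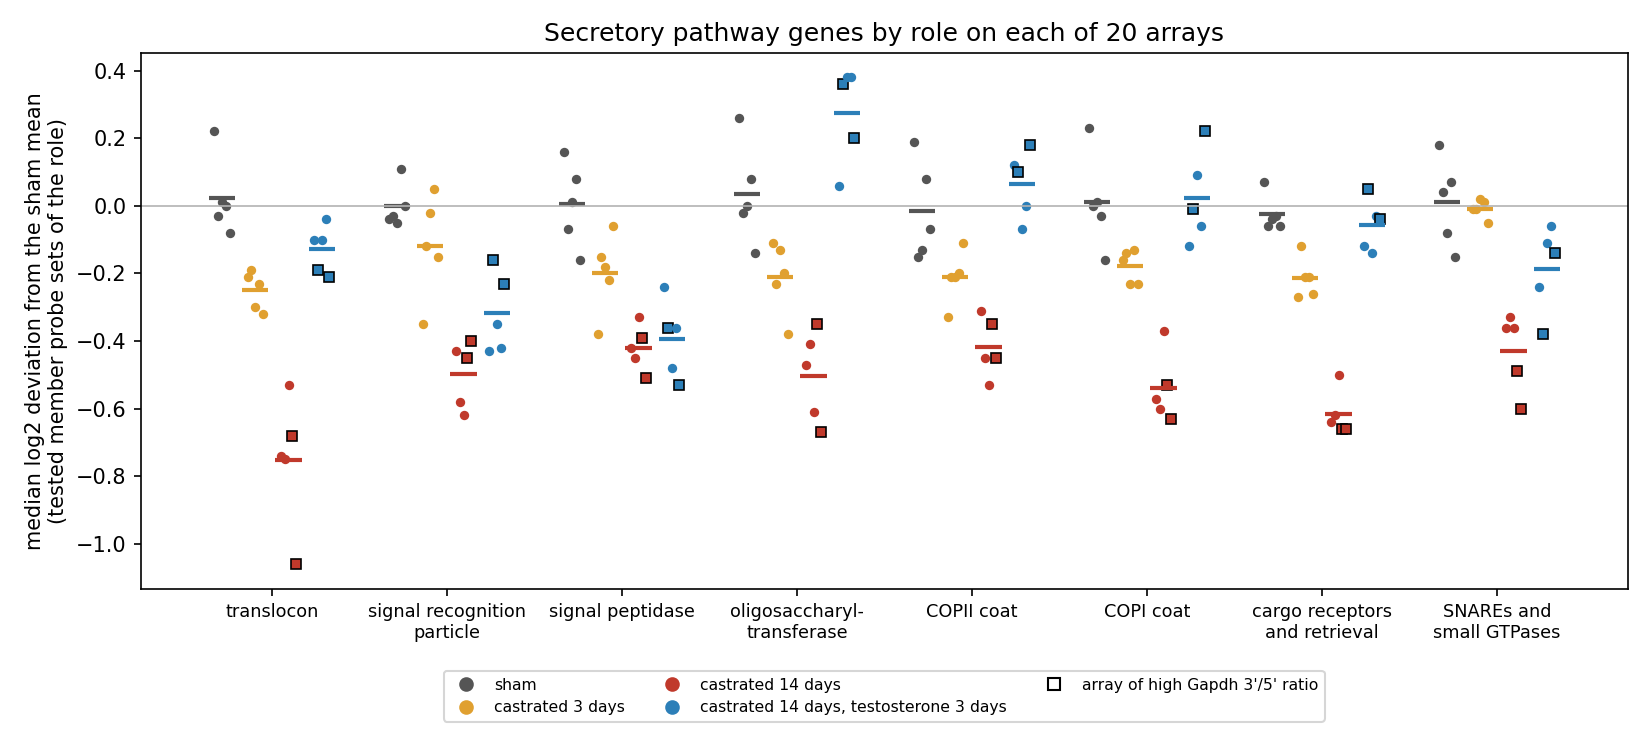
Median log2 difference from the sham mean over the tested probe sets of each functional group (y axis, groups on the x axis), for every array (points), with group means as horizontal bars and the 4 arrays of high Gapdh 3′/5′ ratio as squares. All 5 arrays at 14 days lie below all sham arrays in each functional group, while after testosterone oligosaccharyltransferase probe sets lie between 0.06 and 0.38 and those of signal peptidase between -0.53 and -0.24.

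The translocon genes encode the channel and its partners. 7 of 9 were called lower at 14 days against sham, with a median of -0.88 over the 9, and 6 of 9 were called higher after testosterone than at 14 days. Sec61a1, the pore-forming subunit, had signals of 6879, 7001, 7448, 7018 and 6425 on the 5 sham arrays and 3215, 3268, 3172, 2442 and 2296 at 14 days. The groups did not overlap, and the difference was -1.28 ± 0.14 (SE), adjusted p = 3.96e-07. After testosterone the signals were 5196, 3322, 5764, 5589 and 4272, all above the 14-day arrays and below the sham arrays. That was 0.73 ± 0.14 (SE), adjusted p = 0.00029 against 14 days and -0.55 ± 0.14 (SE), adjusted p = 0.00296 against sham. Replicates 2 and 5, with the high Gapdh ratio, were the lowest of the testosterone arrays.

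Sec61b, the small beta subunit of the channel, read 5622, 5798, 5675, 5635 and 5449 in sham mice and 3279.8, 3200.3, 2480.2, 3582 and 2631 at 14 days, a difference of -0.90 ± 0.10 (SE), adjusted p = 6.52e-07. After testosterone it read 5057, 6245, 6277, 5649 and 5997, above every 14-day array, with 0.95 ± 0.10 (SE), adjusted p = 4.53e-07 against 14 days. The testosterone arrays overlapped the sham arrays, and the change against sham was 0.05. Sec61a2, a second alpha subunit, was not called, at 0.26 against sham at 14 days.

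The translocon-associated protein complex is built from the Ssr proteins and assists the insertion of many signal sequences. Ssr3, its gamma subunit, read 6484, 4723, 4738, 5006 and 4386 in sham mice, 3762, 3546, 3737, 3573 and 3346 at 3 days and 2713, 2681, 2752, 2949.9 and 2549.9 at 14 days. Each castrated array at 3 days was below every sham array, and each at 14 days was below every array at 3 days. The change was -0.48 ± 0.10 (SE), adjusted p = 0.00216 at 3 days and -0.88 ± 0.10 (SE), adjusted p = 3.95e-07 at 14 days. After testosterone Ssr3 read 5963, 6967, 6062, 6489 and 7393, more than any array at 14 days, with 1.26 ± 0.10 (SE), adjusted p = 4.79e-09 against 14 days. It was also called above sham, at 0.38 ± 0.10 (SE), adjusted p = 0.00262.

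Ssr2, the beta subunit, read 2724, 1725, 1961, 1999.6 and 1515 in sham mice, 1374, 1329, 1223, 1333 and 948 at 14 days and 3222, 2402, 3300.3, 3118 and 3139 after testosterone. The 14-day arrays were all below the sham arrays, at -0.66 ± 0.14 (SE), adjusted p = 0.00077. After testosterone every array exceeded the 14-day arrays, by 1.28 ± 0.14 (SE), adjusted p = 6.71e-07, and the change against sham was 0.63 ± 0.14 (SE), adjusted p = 0.00122. Sham replicate 1, at 2724, overlapped the testosterone arrays.

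Ssr1, the alpha subunit, was dimmer, at 422, 445, 313, 367 and 368 in sham mice and 90.5, 123, 243, 79 and 118 at 14 days. The groups did not overlap, and the difference was -1.55 ± 0.32 (SE), adjusted p = 0.000527. After testosterone it read 371, 118, 404, 466 and 122, and the arrays fell apart, with 371, 404 and 466 on replicates 1, 3 and 4 and 118 and 122 on the arrays with the high Gapdh ratio. The change against 14 days was 0.99 ± 0.32 (SE), adjusted p = 0.0172, and the call was lost without testosterone replicate 3 (0.83, adjusted p = 0.053) or replicate 4 (0.78, adjusted p = 0.057).

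Sec63, which helps the channel open for some signal sequences, ranged from 169 to 372 in sham mice, 192 to 239 at 3 days, 69.7 to 175 at 14 days and 39.4 to 239.5 after testosterone. It was lower at 14 days by -1.33 ± 0.34 (SE), adjusted p = 0.00326, although its 14-day arrays overlapped the lowest sham array. Against sham it was -1.14 ± 0.34 (SE), adjusted p = 0.00949 after testosterone, with the lowest values on the arrays with the high Gapdh ratio, and -0.45 (adjusted p = 0.0907) without the 4 such arrays. The part of uneven reading of transcript ends in that difference was not tested. Tram1, a membrane protein beside the channel, changed by -0.85 ± 0.14 (SE), adjusted p = 4.71e-05 at 14 days and by 0.66 ± 0.14 (SE), adjusted p = 0.000755 after testosterone against 14 days. Sec62, the partner of Sec63, was not called in any comparison on its brightest probe set, at 0.09 at 14 days against sham and -0.31 after testosterone against 14 days. Another of its 3 tested probe sets was called lower than sham after testosterone, at -0.78. That call was lost in 1 of 29 alternatives, the one without the 4 arrays of high Gapdh ratio.

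**Figure D2:**
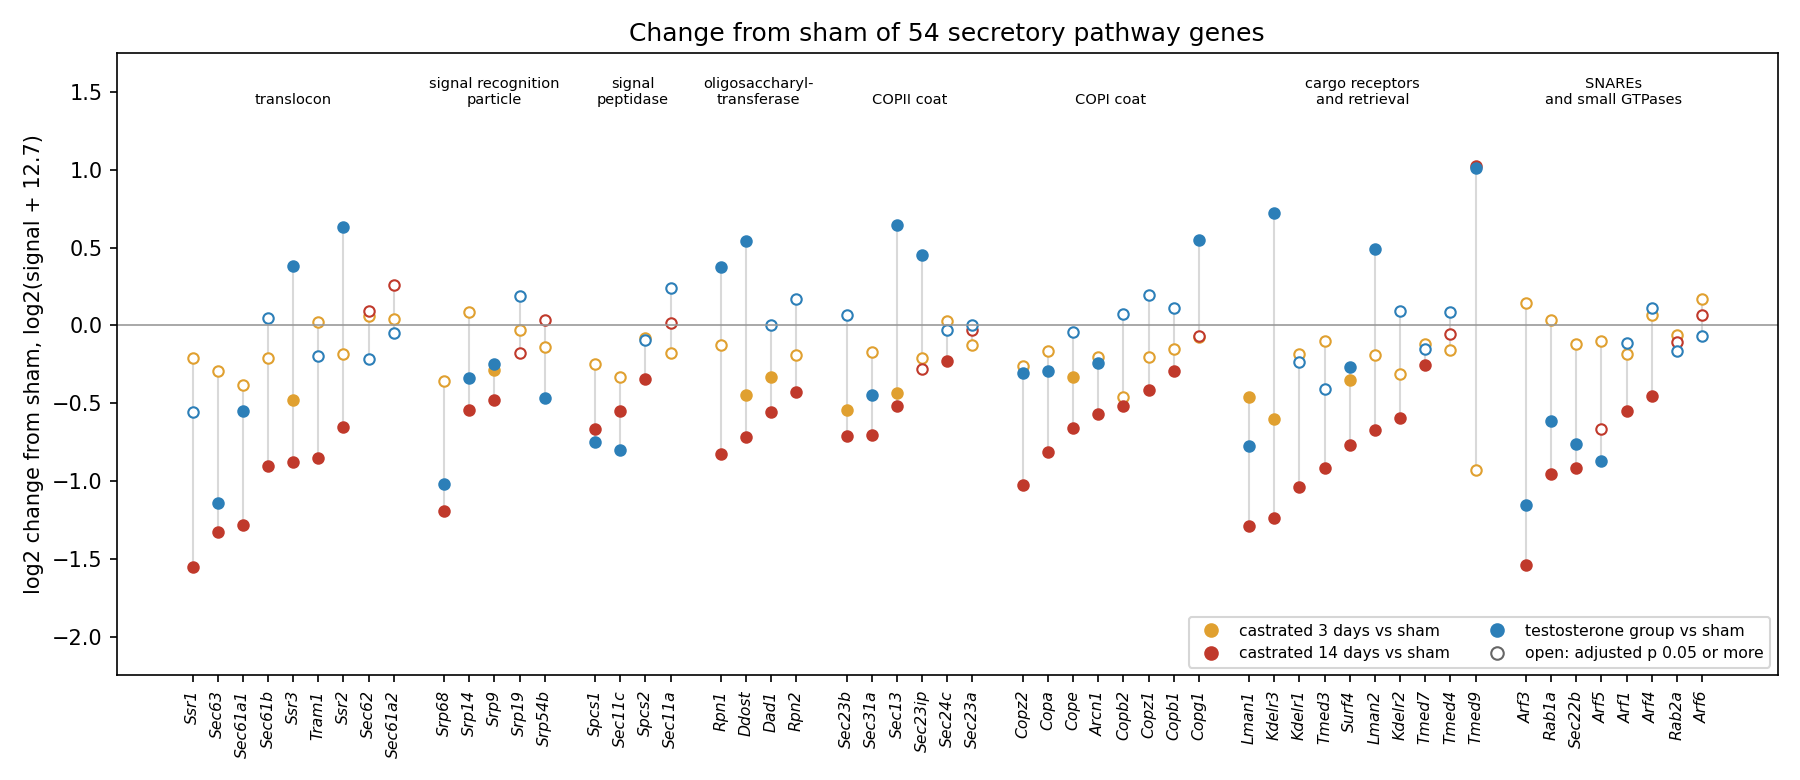
Log2 change from sham (y axis) of the 54 tested genes (x axis, by functional group) at 3 days, at 14 days and after testosterone, with filled points where limma called the change. Most 14-day points lie below 0 while that of Tmed9 lies above, and the testosterone points of Srp68, Sec63, Arf3 and Spcs1 lie below 0 while those of Sec13, Kdelr3 and Ssr2 lie above.

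Signal recognition particle genes were lower at 14 days in 3 of 5 cases, and 1 of 5 was called higher after testosterone than at 14 days, or 3 of 5 when each array was centred. Over all probe sets tested 18.2% were called higher there, and 26.4% when each array was centred. The 1 of 5 thus lies near the share of all. Srp68, which holds the core of the particle together with Srp72, read 3975, 4455, 4540, 4740.2 and 5029.6 in sham mice and 2067, 2279.8, 2281, 1566 and 1779 at 14 days. The groups did not overlap, and the difference was -1.20 ± 0.14 (SE), adjusted p = 6.52e-07. After testosterone it read 2712, 1530, 2464, 2546 and 2135, overlapping the 14-day arrays, at 0.18 ± 0.14 (SE), adjusted p = 0.301. Every testosterone array was below every sham array, at -1.02 ± 0.14 (SE), adjusted p = 5.93e-06.

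Srp14 and Srp9 form the part that pauses translation. Srp14 ranged from 3857 to 6253 in sham mice to 3103 to 3672 at 14 days, with no overlap and a change of -0.55 ± 0.12 (SE), adjusted p = 0.00111. Srp9 ranged from 1801 to 2321 in sham mice to 1319 to 1532 at 14 days, also apart, at -0.48 ± 0.09 (SE), adjusted p = 0.000295. Srp9 was called at 3 days too, at -0.28 ± 0.09 (SE), adjusted p = 0.0485, a call lost under 17 of 29 alternatives, for example without sham replicate 2 (-0.24, adjusted p = 0.125).

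After testosterone Srp14 ranged from 3154 to 4339 and Srp9 from 1511 to 1983, and both overlapped sham and 14 days. Against sham they were -0.34 and -0.25 and were called, but not after each array was centred on its median, at -0.17 (adjusted p = 0.398) and -0.08 (adjusted p = 0.637). Without sham replicate 2 the calls were lost as well, at -0.28 (adjusted p = 0.0789) and -0.20 (adjusted p = 0.0945). Srp19, which aids assembly of the particle, was called higher after testosterone than at 14 days, at 0.37. Srp54b, a copy of the subunit that binds signal sequences, was called lower after testosterone than at 14 days, at -0.50, a call lost in 6 of 29 alternatives.

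Signal peptidase, which removes the signal sequence, had 3 of 4 genes called lower at 14 days against sham. After testosterone limma called 0 of the 4 in either direction against 14 days, and 2 were higher and 0 lower at an unadjusted p under 0.05, with no share of all at that threshold. With each array centred, 2 of the 4 were called higher, where 26.4% of all probe sets tested were. Spcs1, a small accessory subunit, read 502, 536, 637, 566 and 488 in sham mice, 363, 368, 384, 302 and 284 at 14 days and 363, 297, 304, 328 and 304 after testosterone. All 14-day and testosterone arrays of Spcs1 lay below all its sham arrays. The changes from sham were -0.67 ± 0.11 (SE), adjusted p = 3.93e-05 at 14 days and -0.75 ± 0.11 (SE), adjusted p = 1.36e-05 after testosterone, and -0.08 between those groups.

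Sec11c, a catalytic subunit, read 1174, 758, 979.5, 930.4 and 939.9 in sham mice and 633, 538, 724, 588 and 762 at 14 days, where the highest array just passed the lowest sham array. The difference was -0.55 ± 0.15 (SE), adjusted p = 0.00454. After testosterone it read 775, 469.8, 469, 488 and 535, with replicate 1 alone in the sham range, and was -0.80 ± 0.15 (SE), adjusted p = 0.000197 against sham. Spcs2, the other accessory subunit, ranged from 2165 to 2872 in sham mice, 1548 to 2364 at 14 days and 2145 to 2764 after testosterone. It was -0.35 ± 0.12 (SE), adjusted p = 0.0158 at 14 days, and the call was lost without 14-day replicate 5 (-0.26, adjusted p = 0.0547). Sec11a, the other catalytic subunit, was not called, at 0.01 at 14 days and 0.24 after testosterone against sham.

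Oligosaccharyltransferase transfers the preformed sugar chain to asparagine, and all 4 of its genes here, which encode subunits without the catalytic site, were called lower at 14 days and higher after testosterone than at 14 days. Rpn1, ribophorin I, read 2935, 2036, 2116, 2413 and 2035 in sham mice, 1401, 1453, 1513, 1142 and 988 at 14 days and 3067, 2462, 3316, 3479 and 2626 after testosterone. The 14-day arrays were apart from both other groups. They were lower than sham by -0.83 ± 0.13 (SE), adjusted p = 3.49e-05, and testosterone arrays were higher than them by 1.20 ± 0.13 (SE), adjusted p = 5.50e-07. Against sham Rpn1 was 0.37 ± 0.13 (SE), adjusted p = 0.0229 after testosterone, a call lost under 7 of 29 alternatives. It was lost under quantile normalization (0.30, adjusted p = 0.0646), when the model held no other groups (0.37, adjusted p = 0.0503), and without sham replicate 2, 3 or 5 or testosterone replicate 3 or 4 (adjusted p = 0.0503 to 0.0623).

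Ddost, the subunit with a large luminal domain, read 1474, 1126, 1058, 976 and 709.9 in sham mice, 644, 644, 584, 711 and 571 at 14 days and 1364, 1804, 1357, 1357 and 1796 after testosterone. The lowest sham array, at 709.9, overlapped 1 array at 14 days, and the change was -0.71 ± 0.14 (SE), adjusted p = 0.000398. All testosterone arrays were above all 14-day arrays, at 1.26 ± 0.14 (SE), adjusted p = 1.03e-06. Against sham Ddost was 0.54 ± 0.14 (SE), adjusted p = 0.00425, with sham replicate 1 above the lowest testosterone arrays, and 0.38 (adjusted p = 0.0603) without the 4 arrays of high Gapdh ratio, whose 2 testosterone arrays were the highest.

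Dad1, a small membrane subunit, ranged from 5595 to 6461 in sham mice, 4275 to 5006 at 3 days, 3035 to 4594 at 14 days and 5365 to 6649 after testosterone. It was -0.56 ± 0.11 (SE), adjusted p = 0.000236 at 14 days with no overlap, and 0.56 ± 0.11 (SE), adjusted p = 0.000281 after testosterone against 14 days. A dimmer Dad1 probe set ranged from 274 to 463 in sham mice and 268 to 297 after testosterone. It was called lower against sham, at -0.39 ± 0.13 (SE), adjusted p = 0.0196, where the brighter was 0.00, and lost that call under 4 of 29 alternatives: centring each array (-0.22, adjusted p = 0.227), quantile normalization (-0.33, adjusted p = 0.0761), and without sham replicate 1 (-0.31, adjusted p = 0.0582) or sham replicate 2 (-0.34, adjusted p = 0.0528). Rpn2, ribophorin II, is read by a probe set whose probes may match other transcripts. It ranged from 4553 to 6441 in sham mice, 3615 to 4779 at 14 days and 5742 to 7077 after testosterone, with -0.43 ± 0.10 (SE), adjusted p = 0.00122 at 14 days and 0.60 ± 0.10 (SE), adjusted p = 6.02e-05 after testosterone against 14 days.

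**Figure D3:**
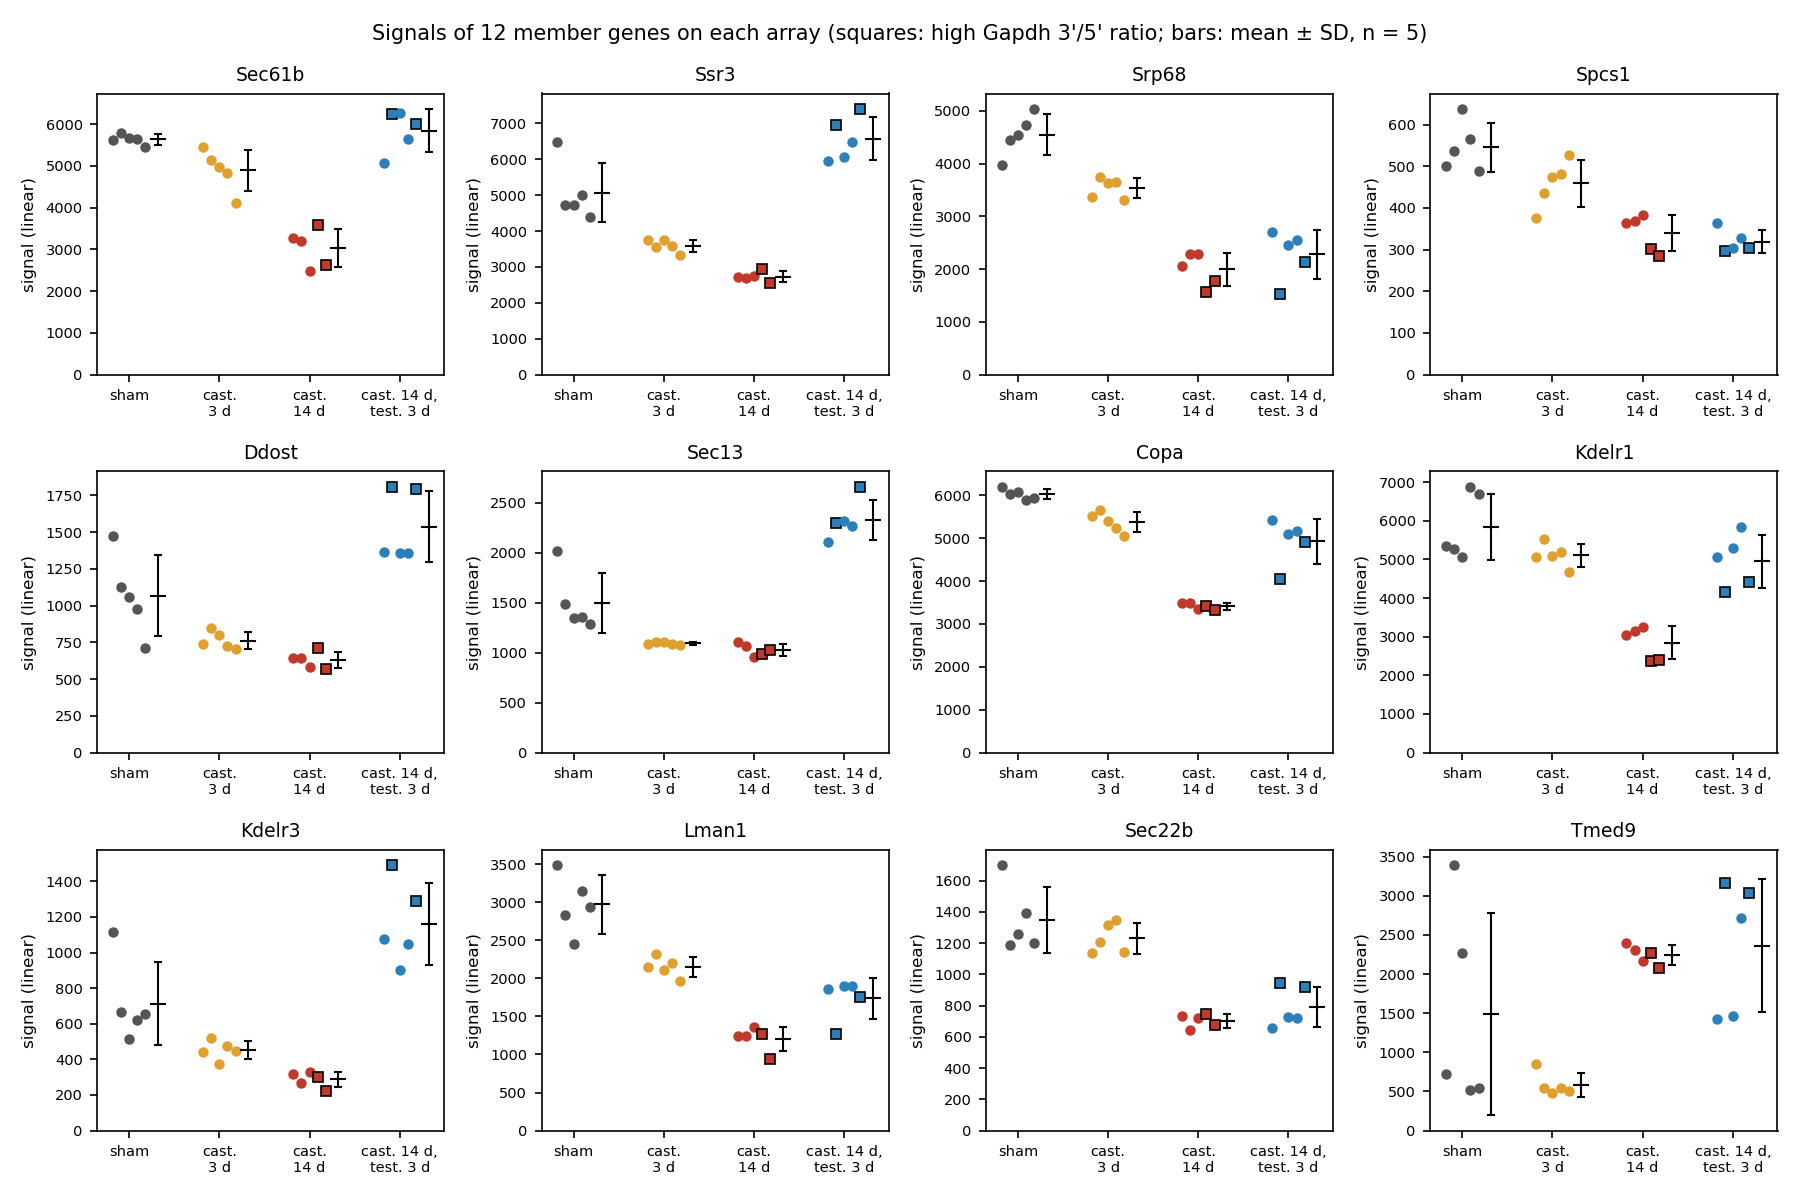
Linear array signal (y axes, starting at 0) of 12 genes in the 4 groups, with 1 point per array, squares for the 4 arrays of high Gapdh ratio and the mean ± SD (n = 5). In Ddost, Sec13 and Kdelr3 the testosterone arrays lie above the sham mean, whereas in Srp68, Spcs1, Lman1 and Sec22b they lie below the sham mean.

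COPII coat genes were called lower at 14 days in 4 of 6 cases, and 5 of 6 were called higher after testosterone than at 14 days. Sec13, which builds the outer cage with Sec31a, read 2023, 1490, 1346, 1361 and 1287 in sham mice, 1092, 1111, 1108, 1088 and 1072 at 3 days, 1104, 1069.8, 956, 991 and 1032 at 14 days and 2108, 2299, 2320.2, 2269.5 and 2655 after testosterone. Every castrated array at 3 and 14 days was below every sham array, and every testosterone array above every sham array. The changes from sham were -0.43 ± 0.10 (SE), adjusted p = 0.00747 at 3 days, -0.52 ± 0.10 (SE), adjusted p = 0.000304 at 14 days and 0.65 ± 0.10 (SE), adjusted p = 3.97e-05 after testosterone. Sec31a ranged from 2629.8 to 3461 in sham mice, 1555 to 1980.1 at 14 days and 1942 to 2475 after testosterone. It was lower at 14 days with no overlap, at -0.71 ± 0.09 (SE), adjusted p = 4.36e-06, and after testosterone it was -0.45 ± 0.09 (SE), adjusted p = 0.00064 against sham, which became -0.28 (adjusted p = 0.0744) when each array was centred on its median.

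Sec23b, of the inner layer that activates the GTPase Sar1, read 2437, 1295, 1265, 1684 and 1305 in sham mice and 1057, 1022, 747, 986 and 917 at 14 days. Sham replicate 1 was far above the other sham arrays, but the groups did not overlap, at -0.71 ± 0.15 (SE), adjusted p = 0.000659. After testosterone Sec23b ranged from 1504 to 1898, with 0.77 ± 0.15 (SE), adjusted p = 0.000368 against 14 days. Sec24c, a cargo-binding subunit, ranged from 1534 to 1696 in sham mice and 1347 to 1472 at 14 days, apart by a small step of -0.23 ± 0.08 (SE), adjusted p = 0.0199. After testosterone it was 0.20 ± 0.08 (SE), adjusted p = 0.0444 against 14 days, and that call was lost under 15 of 29 alternatives, for example without testosterone replicate 1 (0.16, adjusted p = 0.112). Sec23ip, a protein that binds Sec23, was called higher after testosterone than in sham mice, at 0.45. Sec23a, the other Sec23 form, was not called and moved from sham by -0.03 at 14 days.

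COPI coat genes were called lower at 14 days in 7 of 8 cases, and all 8 were called higher after testosterone than at 14 days. Copa, the alpha subunit that binds retrieval signals, read 6186, 6031, 6076, 5898 and 5933 in sham mice, 3494, 3499, 3341, 3416 and 3331 at 14 days and 5415, 4038, 5106, 5179.9 and 4911 after testosterone. The 3 groups did not overlap. The changes were -0.82 ± 0.08 (SE), adjusted p = 4.92e-08 at 14 days against sham and 0.52 ± 0.08 (SE), adjusted p = 1.64e-05 after testosterone against 14 days. Copa stayed below sham at -0.30 ± 0.08 (SE), adjusted p = 0.00316, or -0.13 (adjusted p = 0.248) when each array was centred.

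Copz2, a zeta subunit, ranged from 1549 to 2041 in sham mice, 666 to 1012 at 14 days and 1349 to 1792 after testosterone. The 14-day arrays were apart from both other groups, at -1.03 ± 0.12 (SE), adjusted p = 1.32e-06 against sham and 0.72 ± 0.12 (SE), adjusted p = 9.16e-05 for testosterone against 14 days. Cope, the epsilon subunit, ranged from 2477 to 3107 in sham mice, 1647 to 1969.9 at 14 days and 2560.2 to 3007 after testosterone, with -0.66 ± 0.09 (SE), adjusted p = 5.14e-06 at 14 days and no overlap. Arcn1, the delta subunit, ranged from 1229.9 to 1606 in sham mice, 835 to 1074 at 14 days and 1097 to 1258 after testosterone, with -0.57 ± 0.09 (SE), adjusted p = 1.79e-05 at 14 days. Its probe set may match other transcripts.

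Copg1, the gamma subunit, was the exception in the coat. It read 867, 982, 896, 779 and 834 in sham mice and 842, 864, 896, 778 and 767 at 14 days, which overlapped, at -0.07 ± 0.09 (SE), adjusted p = 0.537. After testosterone it read 1446, 1089.8, 1240.2, 1257 and 1375, above every other array, with 0.55 ± 0.09 (SE), adjusted p = 5.73e-05 against sham. A second Copg1 probe set was not called there, at -0.02. Among the other subunits Copz1 was -0.41 at 14 days and 0.61 after testosterone against 14 days, Copb2 -0.52 and 0.59, and Copb1 -0.29 and 0.41. All 6 of these changes were called. The 14-day call of Copb1 was lost in 15 of 29 alternatives and that of Copb2 in 7.

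Among cargo receptors and retrieval proteins 8 of 10 genes were called lower and 1 higher at 14 days, and 7 of 10 were called higher after testosterone than at 14 days. Kdelr3, a receptor that returns resident proteins ending in KDEL to the endoplasmic reticulum, read 1116, 664, 512, 621 and 654 in sham mice, 444, 522, 376, 473 and 447 at 3 days, 316, 269, 330, 300 and 219.6 at 14 days and 1076, 1489, 904, 1048 and 1287 after testosterone. Sham replicate 1 stood above the other sham arrays, and the 14-day arrays lay below all arrays of every other group. The change was -1.24 ± 0.17 (SE), adjusted p = 7.93e-06 at 14 days. It was 1.96 ± 0.17 (SE), adjusted p = 3.48e-08 after testosterone against 14 days, a 3.89-fold rise, and 0.72 ± 0.17 (SE), adjusted p = 0.00187 against sham. Its probe set may match other transcripts. Without sham replicate 1 the call at 3 days (-0.60 ± 0.17 (SE), adjusted p = 0.0242) was lost, at -0.43 (adjusted p = 0.0579).

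Kdelr1, a second KDEL receptor, read 5357, 5266, 5051, 6864 and 6689 in sham mice, 3038, 3154, 3242, 2374 and 2403 at 14 days and 5055, 4147, 5285, 5836 and 4419 after testosterone. The 14-day arrays were apart from both other groups, at -1.04 ± 0.12 (SE), adjusted p = 8.40e-07 against sham and 0.80 ± 0.12 (SE), adjusted p = 2.36e-05 for testosterone against 14 days. Testosterone arrays overlapped sham arrays, at -0.24. Kdelr2, the third receptor, was -0.59 at 14 days and 0.68 after testosterone against 14 days, both called.

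Lman1, a mannose-binding lectin that carries glycoproteins out of the endoplasmic reticulum, read 3487, 2832, 2455, 3155 and 2941 in sham mice, 2151, 2323, 2107, 2198 and 1967 at 3 days, 1242, 1241, 1358, 1263 and 938 at 14 days and 1855, 1267, 1903, 1906 and 1758 after testosterone. The sham arrays lay above all other arrays. The changes from sham were -0.46 ± 0.12 (SE), adjusted p = 0.016 at 3 days, -1.29 ± 0.12 (SE), adjusted p = 6.72e-08 at 14 days and -0.78 ± 0.12 (SE), adjusted p = 3.91e-05 after testosterone. Lman2, a related lectin of the early route, was -0.68 at 14 days and 0.49 after testosterone against sham on its brighter probe set, both called. Surf4, a receptor for soluble cargo, was -0.77 at 14 days and 0.51 after testosterone against 14 days, both called.

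The p24 proteins of the Tmed family sort cargo into vesicles and did not move together. Tmed3 was called lower at 14 days, at -0.92, and Tmed7 at -0.26, while Tmed4 was not called, at -0.05. Tmed9 was the 1 member called higher at 14 days. It read 721, 3389, 2275, 514 and 549.5 in sham mice, 846, 538, 479, 541 and 511 at 3 days, 2395, 2308, 2161, 2274 and 2079.6 at 14 days and 1429, 3163, 1459.8, 2722 and 3030.3 after testosterone. Sham replicates 2 and 3 lay in or above the range of the 14-day arrays, and the other 3 sham arrays in the range of the 3-day arrays. The change at 14 days was 1.02 ± 0.41 (SE), adjusted p = 0.0426, which was lost in 12 of 29 alternatives, among them those without sham replicate 1 (0.87, adjusted p = 0.101), sham replicate 4 (0.75, adjusted p = 0.129), sham replicate 5 (0.78, adjusted p = 0.127) or any 1 array at 14 days. Between 3 and 14 days, where the groups did not overlap, it was 1.95 ± 0.41 (SE), adjusted p = 0.00103, and no alternative ended that call.

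Of the SNARE and small GTPase genes 5 of 8 were called lower at 14 days, and 2 of 8 were called higher after testosterone than at 14 days, or 4 of 8 without the 4 arrays of high Gapdh ratio. Over all probe sets tested 18.2% were called higher after testosterone than at 14 days, and 17.4% without those 4 arrays. The 2 of 8 thus lies near the share of all. Sec22b, a SNARE of traffic between the endoplasmic reticulum and the Golgi, read 1698, 1186, 1262, 1394 and 1204 in sham mice, 733, 642, 723, 744 and 673 at 14 days and 658, 943, 724, 718 and 917 after testosterone. Both of the later groups lay below all sham arrays, at -0.92 ± 0.11 (SE), adjusted p = 1.82e-06 and -0.76 ± 0.11 (SE), adjusted p = 2.09e-05. A dimmer Sec22b probe set went the other way after testosterone. It read 549.6, 537, 428, 424 and 395 in sham mice, 395, 471, 364, 369.6 and 395 at 14 days and 678, 713, 561, 614 and 696 after testosterone, where all arrays were above all sham arrays at 0.48 ± 0.11 (SE), adjusted p = 0.00129.

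Rab1a, a GTPase that guides vesicles to the Golgi, read 2139, 1852, 1684, 1959 and 1388 in sham mice, 955, 1027, 1499, 690.1 and 629 at 14 days and 1392, 632, 1569, 1812 and 846 after testosterone. The 14-day change was -0.95 ± 0.25 (SE), adjusted p = 0.00321, with replicate 3 in the sham range. After testosterone the low arrays were those with the high Gapdh ratio. The change against sham was -0.61 ± 0.25 (SE), adjusted p = 0.044 with them and -0.17 (adjusted p = 0.362) without the 4 such arrays, and -0.40 (adjusted p = 0.147) without testosterone replicate 2 alone. Rab2a, a related GTPase, was not called, at -0.11 at 14 days and -0.17 after testosterone against sham.

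Arf1 recruits the COPI coat. It read 10808, 11837, 11717, 11931 and 11974 in sham mice, 8132, 8657, 7549.6, 7306 and 8142 at 14 days and 10817, 8455, 12381, 12016 and 10686 after testosterone. It was lower at 14 days with no overlap, at -0.55 ± 0.09 (SE), adjusted p = 7.02e-05, and it was 0.44 ± 0.09 (SE), adjusted p = 0.00076 after testosterone against 14 days, or 0.22 (adjusted p = 0.122) after quantile normalization. Arf3 read 969, 1306, 1097, 1220.4 and 1244 in sham mice, 343, 358, 838, 283 and 309 at 14 days and 835, 257, 1030.4, 842 and 189 after testosterone on its brighter probe set. The 14-day change was -1.54 ± 0.37 (SE), adjusted p = 0.00179, and replicate 3 stood well above the other 14-day arrays. After testosterone the lowest arrays were again those with the high Gapdh ratio, and the change against sham was -1.15 ± 0.37 (SE), adjusted p = 0.0142 with them and -0.37 (adjusted p = 0.179) without the 4 such arrays.

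A second Arf3 probe set ranged from 454 to 569 in sham mice, 459 to 571 at 14 days and 399 to 521 after testosterone, and was 0.05 at 14 days. It was called lower after testosterone than at 14 days, at -0.23 ± 0.09 (SE), adjusted p = 0.0436, a call lost in 16 of 29 alternatives. Arf4, which also acts in early traffic, was -0.46 at 14 days and 0.57 after testosterone against 14 days, both called. Arf5 was not called at 14 days (-0.67) and was called lower than sham after testosterone (-0.87), a call lost under 8 of 29 alternatives. Without the 4 arrays of high Gapdh ratio Arf5 was called lower at 14 days, at -0.31 (adjusted p = 0.0188), and was not called after testosterone, at -0.17 (adjusted p = 0.184). Arf6, which acts at the plasma membrane, was not called, at 0.07 at 14 days.

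Measured against sham, members were called in both directions after testosterone, at shares near those of all probe sets. 21 of the 71 probe sets were called lower and 13 higher, where 29.5% and 23.5% of all were, and the medians were -0.10 for the 71 and -0.09 for all. In genes the counts were 18 lower (33.3%) and 10 higher (18.5%) of 54, beside 28.6% and 24.6% of all genes. These totals therefore do not set the members apart from other genes, and the functional groups below are small. The genes lower than sham were 4 of 5 of the signal recognition particle, 2 of 4 of signal peptidase and 4 of 8 of the SNARE and GTPase group, with none of these 3 groups called higher. The genes higher than sham were 2 of 4 of oligosaccharyltransferase, where none was called lower. In the other groups calls went both ways: 2 lower and 2 higher of 9 in the translocon, 1 and 2 of 6 in COPII, 3 and 1 of 8 in COPI, and 2 and 3 of 10 among cargo receptors.

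That split depended on the scale. The lowest array medians, 158.1 and 154.25, were those of testosterone replicates 2 and 5, which have the high Gapdh ratio. The other testosterone arrays had medians of 179.95 to 193.3, so scale and Gapdh ratio are not separate matters here. Centring each array on its own median moved the median over all probe sets from -0.09 to 0.08 against sham and from -0.10 to 0.09 against 14 days. Relative to it, 9 genes were called lower and 12 higher than sham, so that the share of called genes that were higher went from 35.7% to 57.1%. Quantile normalization gave 20 lower and 8 higher, a share of 28.6%. Over all probe sets the share of calls that were higher went from 44.3% to 62.7% under centring. Against 14 days it went from 40.6% to 64.1% over all, with 37 member genes higher and 0 lower. At an unadjusted p under 0.05 the counts without centring were 36 and 2, again with no share of all genes to set them against. By group, centring left 1 of 5 signal recognition particle genes and 3 of 8 SNARE and GTPase genes called lower than sham, and gave signal peptidase 2 lower and 1 higher of 4. Without the 4 arrays of high Gapdh ratio 1 of 8 SNARE and GTPase genes and 3 of 5 signal recognition particle genes were called lower, and 1 of 4 oligosaccharyltransferase genes higher. On the brightest probe set of each gene, Lman1, Sec11c, Sec22b, Sec61a1, Spcs1 and Srp68 were called lower than sham under all 29 alternatives. Copg1, Kdelr3, Lman2, Sec13, Ssr2 and Ssr3 were called higher under all 29. Other probe sets did not always share these calls. A second Sec61a1 probe set was not called, at -0.15, nor was a second Copg1 probe set, at -0.02. Of 3 Ssr3 probe sets 1 was called, with changes from -1.07 to 0.38.

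Several genes are read by more than 1 probe set, and the readings did not always match. Of 15 genes with at least 2 tested probe sets, 9 were called lower at 14 days on all of them. Ssr3 was -0.88 on its brightest probe set, -1.46 on another and -3.30 on the dimmest. The dimmest read 219, 268, 1127, 10.3 and 5.5 at 14 days and 1650.2, 91.8, 1783, 2253 and 89.2 after testosterone, and all 4 arrays with the high Gapdh ratio were at or below 91.8 while the other arrays of these groups were at 219 or above. Without those 4 arrays the Ssr3 changes were -0.88, -1.21 and -1.56. Tram1 was -0.85 on its brighter probe set and -1.89 on the other, or -0.69 and -1.16 without those arrays, Ssr1 was -1.55 and -0.10, and Sec61a1 was -1.28 and -0.62. Against sham after testosterone, Sec22b and Lman2 were called in opposite directions by their probe sets, with Lman2 at 0.49 and -0.51.

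**Figure D4:**
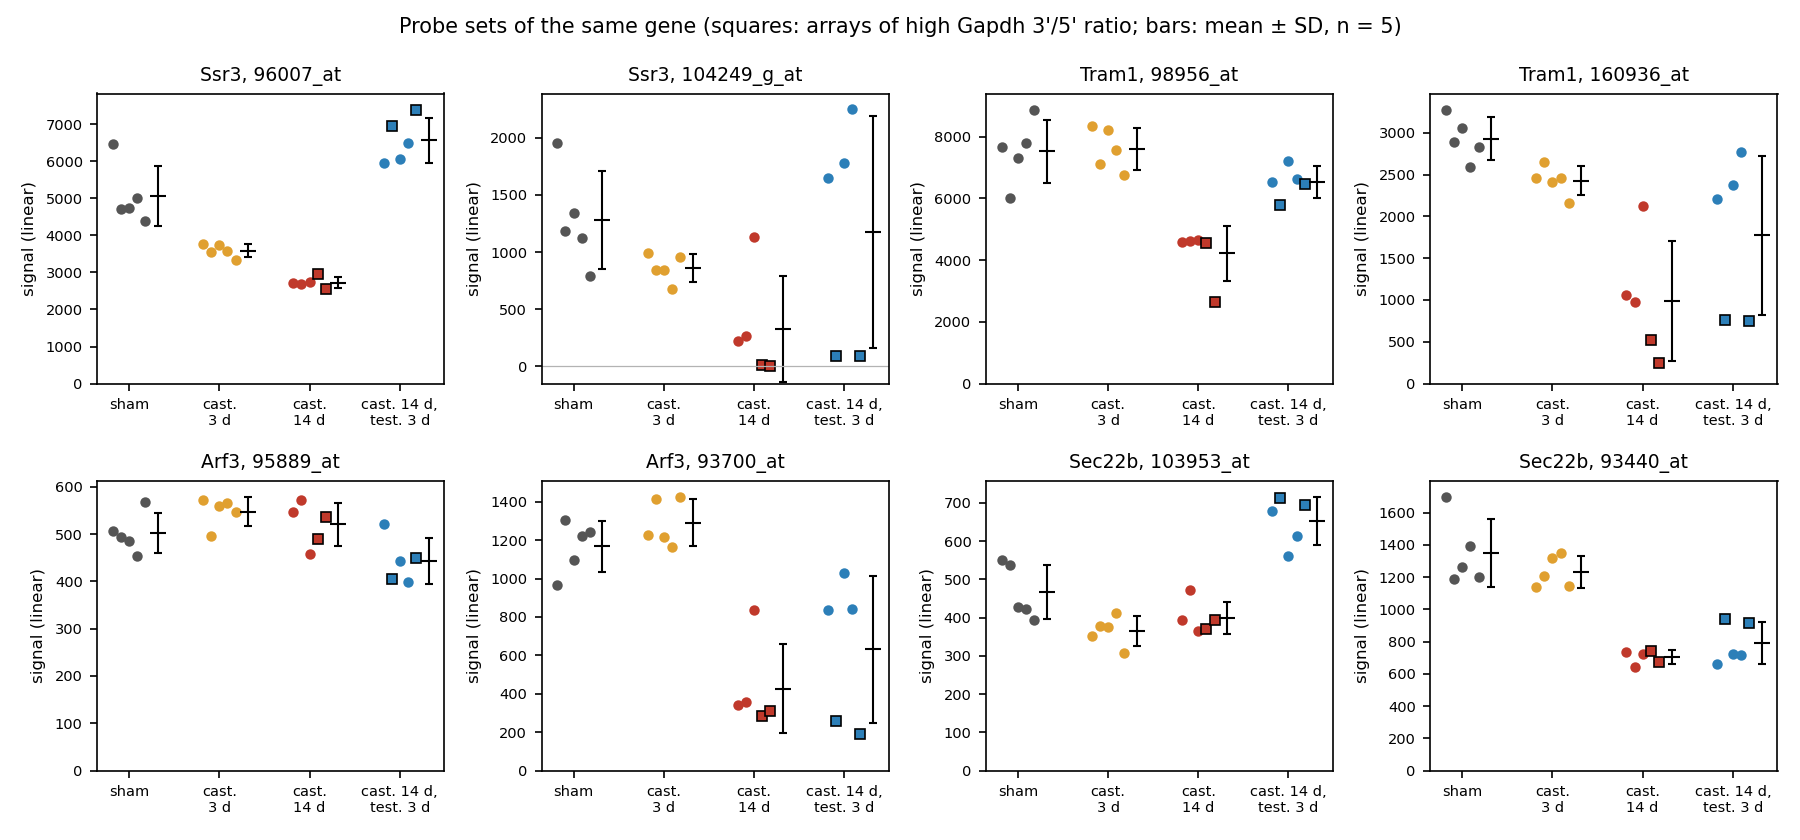
Linear signal per array of 2 probe sets each for Ssr3, Tram1, Arf3 and Sec22b in the 4 groups, with 1 point per array, squares for the 4 arrays of high Gapdh 3′/5′ ratio and the mean ± SD (n = 5). In Ssr3, Tram1 and Arf3 the squares of 1 probe set lie far below the other testosterone arrays, which the other probe set does not show, and the Sec22b probe sets lie on opposite sides of sham after testosterone.

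In 7 of the 71 probe sets (9.86%, against 6.34% of all tested) the testosterone arrays with the high Gapdh ratio lay more than 1 log2 unit below the other testosterone arrays. They were probe sets of Ssr3 (-4.20), Arf3 (-1.97), Arf5 (-1.75), Sec63 (-1.73), Ssr1 (-1.68), Tram1 (-1.67) and Rab1a (-1.10). Leaving out all 4 arrays with that ratio gave 13 genes lower and 7 higher than sham after testosterone, and 31 higher and 0 lower than at 14 days. Over all probe sets tested, 25.5% were then called lower and 21% higher than sham, and 17.4% higher and 22.1% lower than at 14 days. The member shares against sham, 24.1% lower and 13% higher, do not exceed those of all.

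Genes of neighbouring steps, taken from lists of pathway members outside the set, gave a range of counts at 14 days against sham. Over all genes tested, 23.8% were called lower and 30.4% higher there. After testosterone 18.7% of all genes were called higher and 27.8% lower than at 14 days. Of 48 tested glycosylation genes 26 were called lower and 2 higher, with a median of -0.37, and after testosterone 16 were higher and 2 lower than at 14 days. The largest changes were in Man1a (-2.27 ± 0.13 SE, adjusted p = 1.15e-10) and Man2a1 (-1.59 ± 0.12 SE, adjusted p = 5.14e-09), mannosidases that trim sugar chains in the Golgi, and Nans (-1.62 ± 0.14 SE, adjusted p = 1.83e-08), a sialic acid synthase. Of 59 early traffic genes 30 were called lower and 8 higher, with a median of -0.32, and after testosterone 19 were higher and 10 lower than at 14 days. The largest were Os9 (-2.32 ± 0.41 SE, adjusted p = 0.000121), a lectin of protein quality control, Mia3 (-1.29 ± 0.09 SE, adjusted p = 1.06e-09), which loads collagen into COPII carriers, and Bcap29 (1.25 ± 0.16 SE, adjusted p = 3.11e-06).

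Of 30 late secretory genes 14 were called lower and 7 higher, with a median of -0.30. Snap25, a SNARE of regulated exocytosis, was higher at 3.04 ± 0.66 (SE, adjusted p = 0.000758), while Rab3d, a GTPase of secretory granules, was lower at -1.35 ± 0.21 (SE, adjusted p = 2.76e-05) and Exoc4, of the exocyst, at -1.27 ± 0.44 (SE, adjusted p = 0.0197). Of 56 endocytic and lysosomal genes 15 were called lower and 15 higher, with a median of -0.04. These counts lie near the 23.8% lower and 30.4% higher of all genes. The largest changes were in Eps15 (1.38 ± 0.12 SE, adjusted p = 1.52e-08), Ap2a1 (-1.25 ± 0.24 SE, adjusted p = 0.000239) and Vps41 (1.22 ± 0.13 SE, adjusted p = 3.18e-07). Of 13 targeting and translocation genes outside the set 3 were called lower and 3 higher, also near the shares of all genes, with a median of 0.09. Srpr, the receptor of the signal recognition particle, was lower at -1.18 ± 0.15 (SE, adjusted p = 2.57e-06). Get3 (-1.15 ± 0.41 SE, adjusted p = 0.0252) and Bag6 (-0.88 ± 0.34 SE, adjusted p = 0.033), of the pathway for tail-anchored proteins, were the other 2 lower.

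**Figure D5:**
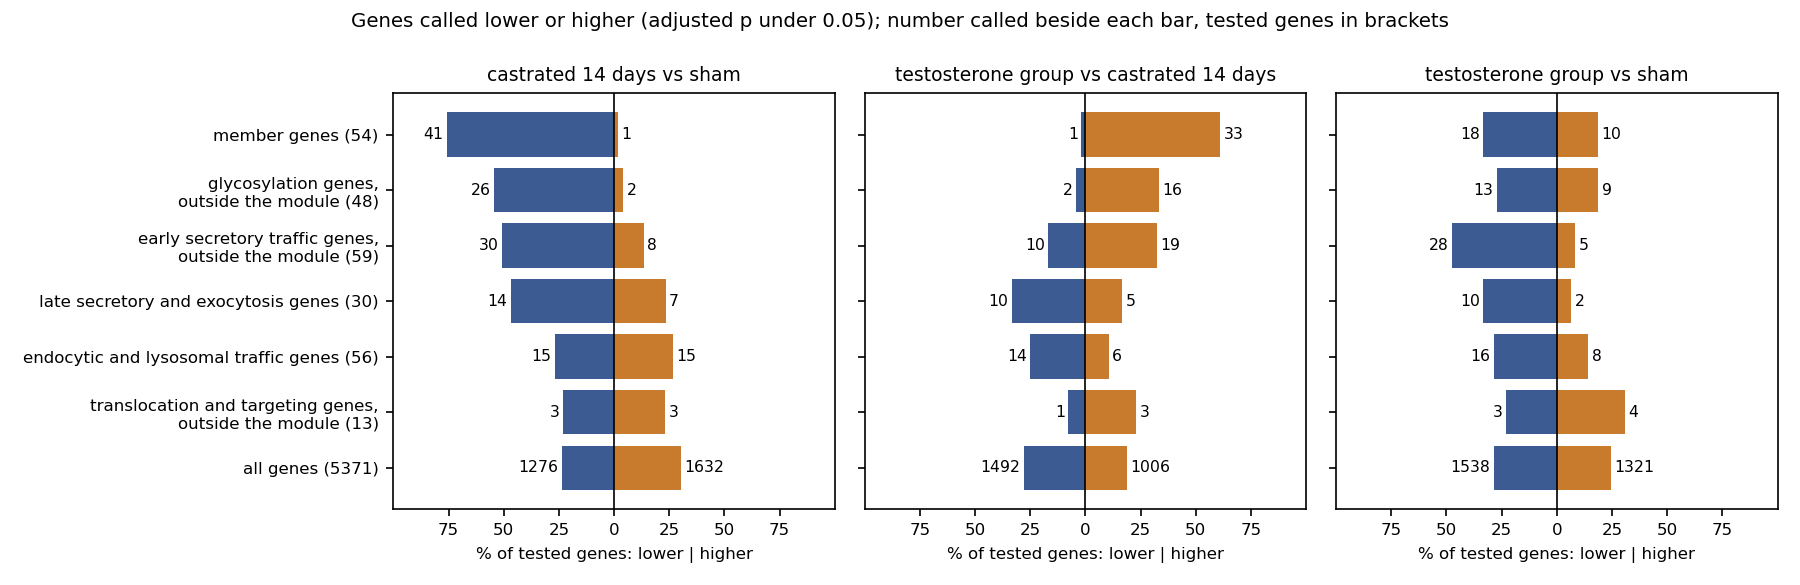
Percent of tested genes called lower (left of 0) and higher (right of 0) by limma in 3 comparisons, for the members, the 5 pathway lists and all genes tested. At 14 days the members have 75.9% called lower against 23.8% of all genes, and after testosterone 61.1% called higher than at 14 days against 18.7%.

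Markers of the cell types in the tissue moved in the same comparisons, and in bulk tissue fewer cells of a type and less RNA per cell cannot be told apart. The summed signal of 11 luminal epithelial markers was 57100 to 70020 in sham mice, 51620 to 57830 at 3 days, 39410 to 51720 at 14 days and 46170 to 56080 after testosterone. Of 10 tested, 3 were called lower and 2 higher at 14 days. The secreted products Msmb (-6.49 ± 0.45 SE) and Pbsn (-1.79 ± 0.12 SE) were lower, the keratin Krt8 (0.96 ± 0.14 SE) and the adhesion molecule Epcam (0.71 ± 0.11 SE) were higher, and Krt18 was not called (0.22 ± 0.15 SE). The sum of 11 macrophage markers was 3098 to 4270 in sham mice, 7312 to 9117 at 3 days, 13610 to 21610 at 14 days and 6188 to 8945 after testosterone, with 8 of 9 tested called higher at 14 days. The 4 seminal vesicle markers summed to 49370 to 61970 in sham mice, 41770 to 58540 at 3 days, 3169 to 32150 at 14 days and 40470 to 52170 after testosterone, with 4 of 4 called lower at 14 days.

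The 9 fibroblast markers summed to 13720 to 15130 in sham mice and 20250 to 27940 at 14 days, with 6 of 8 tested called higher. The 8 smooth muscle markers summed to 27000 to 32620 in sham mice, 17220 to 22880 at 14 days and 38880 to 41750 after testosterone. Endothelial markers summed to 662 to 1083 and 1777 to 2292 in sham and 14-day arrays, and basal markers to 1155 to 1445 and 1553 to 2078. Plasma cell markers summed to 428 to 819 in sham mice and 691 to 1716 at 14 days. Skeletal muscle markers ranged from 4072 to 17560 in sham mice and from 3173 to 26590 at 14 days. The part of these cell types in the changes of the secretory route was not tested.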

How the data were processed

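Whole prostates were measured on 20 Affymetrix MG-U74A arrays, 5 in each of 4 groups taken from the labels. The deposited values are linear signal intensity per probe set, made by the authors with MAS5 5.0 per the submitters' processing notes, 1 sample per column, with no counts, and the number of arrays limits the precision. The genome build used for the annotation is not given in the sources used here. Genes were named through GEO's platform annotation: of 12422 probe sets that are not controls, 10833 have 1 symbol, 396 several and 1193 none. Of these, 6913 with a signal above 190.8 (the median of all values of these probe sets) on at least 5 of 20 arrays were tested.

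Signals were transformed as log2(signal + 12.7), where 12.7 is the 10th percentile of all values, and fitted in 1 model over the 4 groups with limma 3.58.1 in R 4.3.3, two-sided, with Benjamini-Hochberg adjustment over all probe sets tested in each of 5 comparisons. A change is called at an adjusted p under 0.05. The model was tested on simulated data. Named with full values are, per functional group, the up to 4 members with the largest change among those called at 14 days against sham, and members called against the direction of most called members of their group. The brightest probe set stands for a gene. Of the pathway lists, the 3 genes with the largest called change are named. Members and lists were chosen with earlier results of these data known. Alternatives were other pseudocounts, scalings, filters, fits and leaving out arrays. RefSeq promoters (GRCm38.p6) were matched by symbol.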

Additional observations from a re-analysis of the deposited data

Results flagged for a closer look

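A gap test for 1 array far from the other 4 of its group was applied to each tested member and group. It marked 27 of 284 sets of 5 arrays (9.51%), and 6 of the 27 were sham replicate 1. The nominal rate of the test is about 1 in 20. The test was run on linear signals, members on 1 array are not independent, and no rate over all probe sets is given. The 9.51% therefore cannot be read as an excess. Of the 27, 14 concern the named genes.

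Sham replicate 1 was the highest sham array for Kdelr3 (1115.9) and Sec13 (2022.7) and the lowest for Arf1 (10808.4). Sham replicate 5 was the lowest for Cope (2477.1). At 3 days, replicate 1 was the highest for Tmed9 (845.9) and replicate 5 the lowest for Srp14 (4381.5). At 14 days, replicate 3 was the highest for Arf3 (837.6) and Ssr1 (243.3), replicate 2 the highest for the dimmer Sec22b probe set (471.4), and replicate 5 the lowest for Lman1 (937.8). After testosterone, replicate 2 was the lowest for Ssr2 (2401.7) and Lman1 (1266.6) and the highest for Copz2 (1791.8), and replicate 1 was the highest for Sec11c (774.6). The causes of these single arrays were not tested.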

How the results depend on the processing

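Each result was recomputed under 29 alternatives, apart from the values of Sec63, which missed the filter on mean signal and have 28. No called change of a named gene reversed its sign. The balance of member genes against sham after testosterone did turn: it was 18 lower and 10 higher with a median of -0.08, and 9 lower and 12 higher with a median of 0.09 when each array was centred. 1 alternative, leaving out the 4 arrays of high Gapdh ratio, was chosen after seeing the data. With each array centred on its median, 5 members were called lower at 3 days and 10 were called lower than sham after testosterone, in place of 12 and 21. The 1 member called higher at 14 days became 0 with no filter on low values, with only the 2 groups compared in the fit, with array weights and without those 4 arrays. The 2 called lower after testosterone than at 14 days became 0 under centring, 0 under quantile normalization, 0 without those 4 arrays and 1 with only the 2 groups in the fit. The causes were not tested. Leaving out 1 array at a time gave 6 to 14 lower and 0 to 0 higher at 3 days, with 6 without sham replicate 1 and without 3-day replicate 5, and 7 without 3-day replicate 1 or 3. It gave 46 to 52 lower and 0 to 1 higher at 14 days, 31 to 36 lower and 1 to 1 higher between 3 and 14 days, 0 to 3 lower and 38 to 42 higher after testosterone against 14 days, and 14 to 23 lower and 11 to 15 higher against sham. The lowest of these, 14, came without sham replicate 2. Among values of single named genes 4943 kept their direction and side of the threshold, 221 lost a call and 51 gained one. No paired analysis was possible because the replicate numbers are names in accession order. Changes of probe sets near the filter, such as Sec63, are limited by their low signal.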
